A study of Mus musculus with 16 samples.

Results

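The miR-183, miR-96, miR-182 cluster is a group of 3 miRNA hairpins that lie next to each other in the genome and are read out in 1 transcript. Its members on the array were every mouse miRNA named miR-183, miR-96 or miR-182, whichever arm of the hairpin it came from, which gave 4 of the 611 mouse miRNAs measured. They were miR-183-5p, miR-183-3p, miR-96-5p and miR-182-5p. Levels were measured in whole lung of BALB/c mice aged 8 to 12 weeks with Agilent single-colour miRNA microarrays in a model of allergic airways disease (AAD), and each value is a log2 signal scaled between arrays.

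All mice received 1 mg Alhydrogel, an aluminium hydroxide adjuvant, by intraperitoneal injection on day 0. The 2 PBS/PBS arrays came from mice given Alhydrogel without ovalbumin (OVA) and, per the labels, challenged with PBS. The study's methods describe an OVA challenge for all mice, while its results name this group as challenged with PBS, as the labels do. The 4 PBS/OVA arrays came from mice given Alhydrogel without OVA and then 10 µg of OVA into the nose. The 6 OVA/OVA arrays came from mice sensitised with 50 µg of OVA and challenged with 10 µg of OVA, which is the allergic group. The 4 OVA/OVA DEX arrays came from mice sensitised and challenged in the same way and given 3 mg/kg of the steroid dexamethasone (DEX) from day 11 on alternate days. Lungs were taken 24 hours after the last challenge. The labels do not say whether each array held the RNA of 1 animal, so the p-values measure the spread between arrays. Whole lung holds many cell types, and in such RNA fewer cells of a type and less RNA per cell cannot be told apart.

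The primary transcript of the cluster is cut into hairpins by Drosha, and Dicer then frees a short duplex from each hairpin. From each duplex 1 strand, here the 5p arm, is loaded into Argonaute and pairs with target mRNAs mainly through bases 2 to 8, the seed. The cluster is best known from sensory cells, the photoreceptors of the retina and the hair cells of the inner ear, and it is also found in epithelia. In T helper cells miR-182 is induced after activation by IL-2 signalling through STAT5 and lowers Foxo1, a transcription factor that restrains expansion of activated T cells.

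In RefSeq (GRCm38.p6) the 3 hairpins lie on the minus strand of chromosome 6 within 3820 bases. The Mir183 hairpin is at chr6:30169668-30169737. The Mir96 hairpin is at chr6:30169446-30169551, 116 bases downstream, and the Mir182 hairpin is at chr6:30165918-30165992, a further 3453 bases downstream. All 4 members matched an entry in the RefSeq table. The mature sequences of the members are shown 5′ to 3′ with the seed in capitals, since the seed decides which mRNAs each can pair with.
miR-183-5p: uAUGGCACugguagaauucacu
miR-96-5p: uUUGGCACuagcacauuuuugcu
miR-182-5p: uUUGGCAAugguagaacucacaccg
miR-183-3p: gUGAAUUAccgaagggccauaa
The seeds of the 3 guide strands, the 5p arms, are close but not the same. Position by position, miR-96-5p shared 6 of 7 seed bases with miR-183-5p and 6 of 7 with miR-182-5p, and miR-183-5p shared 5 of 7 with miR-182-5p. Outside the seed, miR-183-5p and miR-182-5p also had the 8-base run UGGUAGAA in common, from base 9 of each. No other mouse miRNA in the table carried the seed of miR-183-5p or miR-182-5p, and 1, miR-1271-5p, which was not on the array, carried that of miR-96-5p. The Mir183 hairpin is shown with both arms in capitals, because it is the only one of the 3 for which both arms were measured.
Mir183 hairpin: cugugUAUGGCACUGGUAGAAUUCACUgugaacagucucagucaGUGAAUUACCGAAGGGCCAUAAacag

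The members were not measured equally well. miR-183-5p and miR-96-5p were called detected by the scanner software on 16 of 16 arrays. miR-182-5p was detected on 8 arrays: 2 of 2 PBS/PBS, 3 of 4 PBS/OVA, 2 of 6 OVA/OVA and 1 of 4 OVA/OVA DEX arrays. miR-183-3p, the passenger strand of the Mir183 hairpin, was detected on 0 of 16 arrays and lay at the floor of 0.77 on the log2 scale on each. The floor is the lowest scaled signal of a detected miRNA, taken as the median over arrays, and lower signals were raised to it. Only miRNAs called detected on all arrays of any 1 group were tested, 266 in all. miR-182-5p entered through PBS/PBS alone, and miR-183-3p was not tested.

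The levels of miR-183-5p were lowest in the allergic lungs as processed here, but not after normexp background correction or in the deposited processed values, both given below. The log2 scaled signal was 5.97 and 5.95 on the PBS/PBS arrays. It was 6.02, 6.36, 6.07 and 6.13 on the PBS/OVA arrays. On the 6 OVA/OVA arrays it ran from 5.48 to 5.89, with a median of 5.67. All 6 OVA/OVA arrays were below every PBS/PBS and PBS/OVA array. Of all miRNAs tested, 25.6% were apart in this direction against PBS/PBS and 9.02% against PBS/OVA. The OVA/OVA DEX arrays gave 6.18, 6.23, 6.07 and 5.78, so that replicate 4 lay inside the OVA/OVA range and the other 3 above it. As group means ± SD, miR-183-5p was at 5.67 ± 0.19 in OVA/OVA (n = 6), against 6.14 ± 0.15 in PBS/OVA (n = 4), 6.07 ± 0.20 in OVA/OVA DEX (n = 4) and 5.96 ± 0.02 in PBS/PBS (n = 2).

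The levels of miR-96-5p were also lowest in OVA/OVA as processed here. Its log2 scaled signal was 8.34 and 8.28 in PBS/PBS and 8.41, 8.52, 8.41 and 8.38 in PBS/OVA. On the OVA/OVA arrays it ran from 7.89 to 8.34, with a median of 8.13. Every OVA/OVA array was below every PBS/OVA array, as for 9.02% of all miRNAs tested, but OVA/OVA and PBS/PBS overlapped. The OVA/OVA DEX arrays gave 8.67, 8.57, 8.46 and 8.20, again with replicate 4 inside the OVA/OVA range. The means ± SD were 8.13 ± 0.18 in OVA/OVA (n = 6), against 8.43 ± 0.06 in PBS/OVA (n = 4), 8.48 ± 0.20 in OVA/OVA DEX (n = 4) and 8.31 ± 0.04 in PBS/PBS (n = 2).

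miR-182-5p was near the floor and spread most. Its log2 scaled signal was 2.96 and 3.17 in PBS/PBS and 3.14, 3.28, 2.95 and 2.70 in PBS/OVA. On the OVA/OVA arrays it ran from 0.77 to 3.04 with a median of 2.39, and 2 of the 6 arrays were at the floor. The OVA/OVA DEX arrays gave 3.51, 2.77, 2.44 and 1.95. OVA/OVA overlapped each of the other groups.

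**Figure D1:**
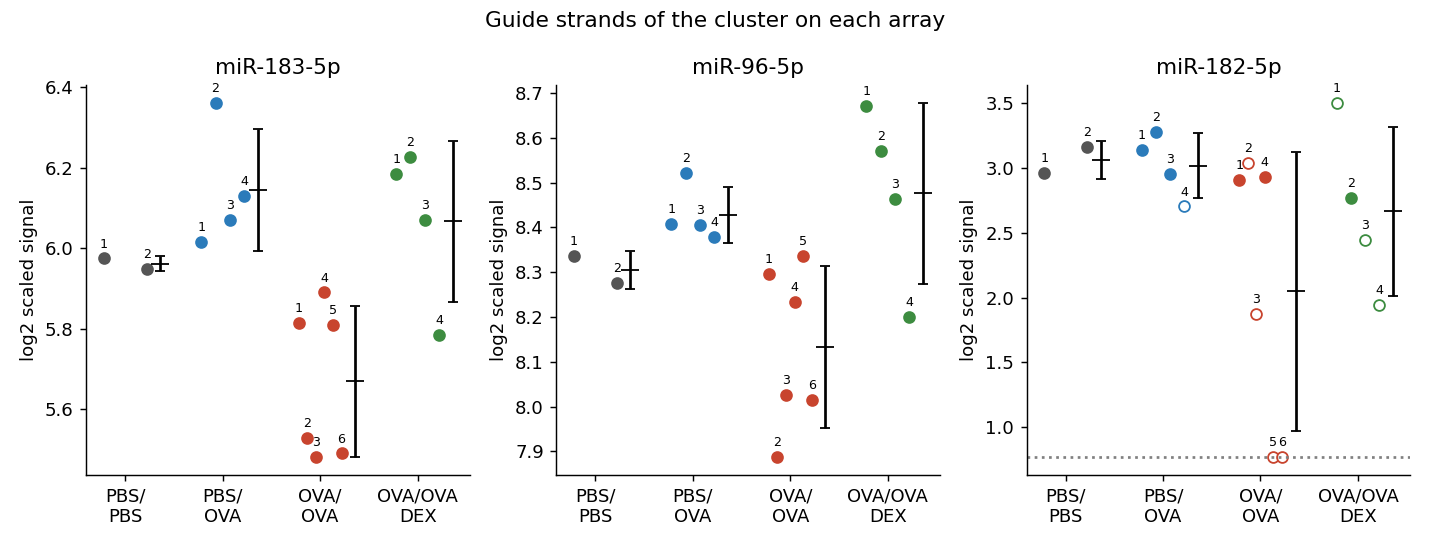
Log2 scaled signal of the 3 guide strands on each of the 16 arrays (vertical axes, different ranges), by group. Each point is an array with its replicate number, filled where the miRNA was called detected. The bar and whiskers are the group mean ± SD and the dotted line the floor of 0.77. As processed here, the OVA/OVA points of miR-183-5p and miR-96-5p lie below all PBS/OVA points, and those of miR-182-5p overlap every group.

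To ask what the allergic response changed beyond the challenge itself, OVA/OVA was compared with PBS/OVA. miR-183-5p and miR-96-5p were lower in OVA/OVA as processed here, by less than 2-fold, although after normexp background correction miR-183-5p turned to a difference of 0.19 and miR-96-5p was at -0.08, neither past the test. miR-183-5p fell by 0.48 on the log2 scale (SE 0.11; 95% interval -0.72 to -0.23; limma, adjusted p = 0.00667), a change of -28.1%. miR-96-5p fell by 0.30 (SE 0.10; interval -0.52 to -0.07; limma, adjusted p = 0.0457), a change of -18.5%. miR-182-5p differed by -0.97 (SE 0.48; interval -1.99 to 0.05; limma, adjusted p = 0.128; 0.0210 to 0.909 over its alternatives), which did not pass the test except with control spot scaling, where it was at -1.33. Under that scaling the median of all miRNAs tested was at -0.63. Thus 2 of the 4 members, 3 of them tested, were past an adjusted p of 0.05 and lower, against 16.9% of all 266 miRNAs tested. A change of at least 2-fold was passed by 0 members, against 5.26%. The call of miR-96-5p lay near the threshold and was lost when any 1 of 11 of the 16 arrays was left out, that is, any array but OVA/OVA replicates 1, 4 and 5 and OVA/OVA DEX replicates 1 and 4 (adjusted p of up to 0.0922). The call of miR-183-5p held without each of the 16 arrays in turn. Arrays of the 2 groups did not overlap, with OVA/OVA lower, for 9.02% of all miRNAs tested.

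To ask what the steroid changed in the allergic lung, OVA/OVA was compared with OVA/OVA DEX. The same members were lower without DEX as processed here, with the same exception of normexp, under which the differences were 0.10 for miR-183-5p and -0.15 for miR-96-5p and neither passed. miR-183-5p differed by -0.40 (SE 0.11; 95% interval -0.64 to -0.15; limma, adjusted p = 0.0105). miR-96-5p differed by -0.34 (SE 0.10; interval -0.57 to -0.12; limma, adjusted p = 0.0141). miR-182-5p differed by -0.62 (SE 0.48; interval -1.64 to 0.41; limma, adjusted p = 0.301) and did not pass. The count was again 2 of 4 members, 3 of them tested, against a background of 32.3% of all miRNAs tested that were lower in OVA/OVA. With a change of at least 2-fold 0 members passed, against 12.8%. Without OVA/OVA DEX replicate 1, miR-96-5p was at -0.28 and just missed the test (adjusted p = 0.0503; 0.00385 to 0.378 over its alternatives). By the exact Mann-Whitney test, which the study's methods name, both had an adjusted p of 0.115. This comparison and the previous one share the OVA/OVA arrays.

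Against PBS/PBS, 0 of the 4 members, 3 of them tested, passed in OVA/OVA by limma, against 12.4% of all miRNAs tested that were lower. The exact Mann-Whitney test could not pass here, since with 2 PBS/PBS arrays its smallest p is 0.0714. The differences were -0.29 for miR-183-5p (SE 0.14; limma, adjusted p = 0.138), -0.17 for miR-96-5p (SE 0.13; adjusted p = 0.33) and -1.01 for miR-182-5p (SE 0.60; adjusted p = 0.212). Unadjusted, none of these p-values was under 0.05, against 41.4% of all miRNAs tested, the lowest being 0.0603 for miR-183-5p, whose arrays did not overlap between the groups. Arrays of the 2 groups did not overlap, with OVA/OVA lower, for 25.6% of all miRNAs tested. PBS/PBS had 2 arrays, which limits what this comparison could show.

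The remaining 3 comparisons gave no member past the test by limma, and none at an unadjusted p under 0.05, which 4.51%, 22.2% and 7.14% of all miRNAs tested had in the order given here. The exact Mann-Whitney test passed none either, but in the comparisons with PBS/PBS its smallest p is 0.133. Between PBS/OVA and PBS/PBS, where 0.376% of all miRNAs tested passed, miR-183-5p differed by 0.18 (95% interval -0.14 to 0.51), miR-96-5p by 0.12 (-0.18 to 0.42) and miR-182-5p by -0.04 (-1.42 to 1.33). Between OVA/OVA DEX and PBS/OVA, where 2.26% passed, miR-183-5p differed by -0.08 (-0.34 to 0.19) and miR-96-5p by 0.05 (-0.20 to 0.29). Between OVA/OVA DEX and PBS/PBS, where 0% passed, miR-183-5p differed by 0.11 (-0.22 to 0.43) and miR-96-5p by 0.17 (-0.13 to 0.47). Between OVA/OVA DEX and PBS/OVA the intervals of both members left out, in either direction, differences as large as those that passed in OVA/OVA for the same member. The wider intervals against PBS/PBS held differences that large upwards, except that for miR-183-5p in OVA/OVA DEX the interval ended below 0.48. For miR-182-5p all 6 intervals included 0.

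**Figure D2:**
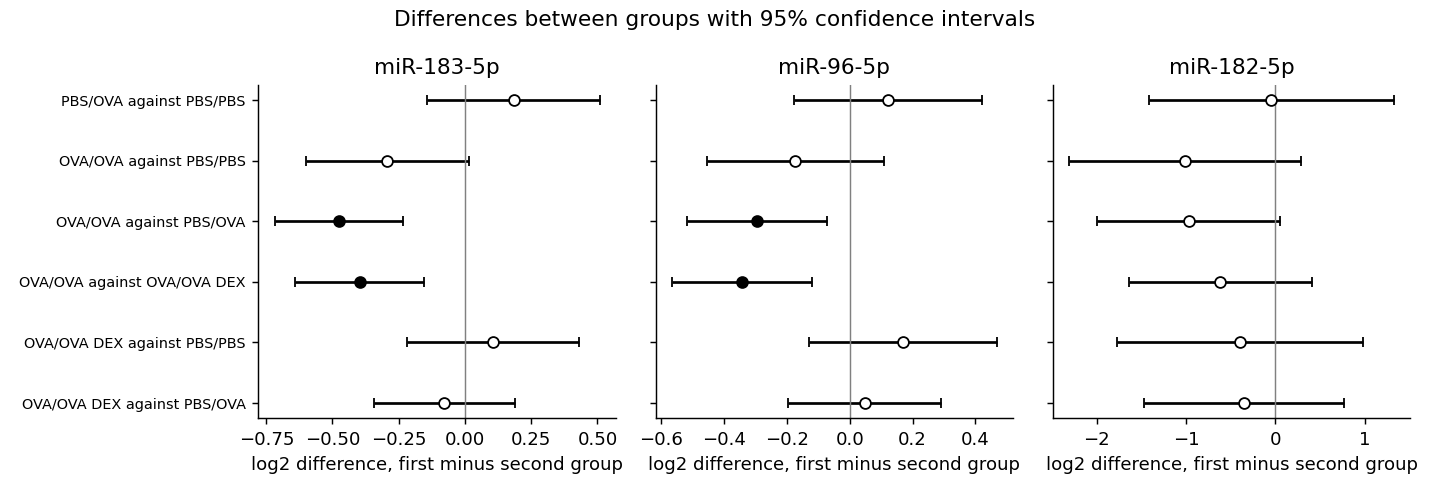
Log2 difference, first minus second group, of each guide strand in the 6 comparisons, with its 95% confidence interval from the limma fit (horizontal axes differ in range). Filled points have an adjusted p under 0.05. For miR-183-5p and miR-96-5p the filled points are the comparisons of OVA/OVA with PBS/OVA and with OVA/OVA DEX, all below 0. After normexp background correction those of miR-183-5p are above 0 and none passes.

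Each guide strand was read by 2 probes in 10 spots each. Both probes of miR-96-5p gave nearly the same difference between OVA/OVA and PBS/OVA, -0.31 and -0.29. Those of miR-183-5p gave unequal differences, -0.65 for the probe with fewer spots above background and -0.40 for the other. Against OVA/OVA DEX they gave -0.62 and -0.30. Of the 160 spots of each probe over all arrays, 113 of the first and 157 of the second were well above background. For miR-182-5p, 1 probe had 0 of 160 spots well above background and the other 18. The level was the sum of both, and the probe without signal read below 0 on 15 of the 16 arrays and so lowered it. On OVA/OVA replicates 5 and 6 the dim probe alone was at 4.70 and 4.61 scaled units, above the floor of 1.71, while the other probe was at -3.94 and -6.37 and took the sum to the floor. On the highest array, OVA/OVA DEX replicate 1, that probe was above 0. The dim probe alone gave differences of OVA/OVA of -0.41 against PBS/OVA, -0.21 against OVA/OVA DEX and -0.45 against PBS/PBS, each less than the -0.97, -0.62 and -1.01 of the sum.

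The deposited table of processed values gave another picture for miR-183-5p, and it parted from the scanner totals on the arrays where a total held 1 probe. Feature Extraction reports a total signal per miRNA. For miR-183-5p that total held both probes on 13 arrays and 1 probe on the other 3, OVA/OVA replicates 2, 3 and 6. On the 13 arrays the deposited value, after a shift common to each array, was 0.939 to 1.04 times the total. On the 3 arrays it was 2.62, 3.35 and 3.19 times the total. These 3 arrays, the lowest of all 16 in scaled signal, had the highest deposited log2 values of miR-183-5p, -0.9, -0.8 and -0.6, while the other 3 OVA/OVA arrays had -1.7, -1.5 and -1.6. The OVA/OVA mean of the deposited values was -1.18 ± 0.47 (SD, n = 6) against -1.30 ± 0.22 in PBS/OVA (n = 4), the opposite order to that of the scanner signals. For miR-96-5p, whose total held both probes on all 16 arrays, the ratio was 0.955 to 1.03. In the deposited values miR-96-5p differed by -0.28 between OVA/OVA and PBS/OVA (limma, adjusted p = 0.0739; 0.0126 to 0.487 over its alternatives). The step that set these values is not given in the sources used here.

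**Figure D3:**
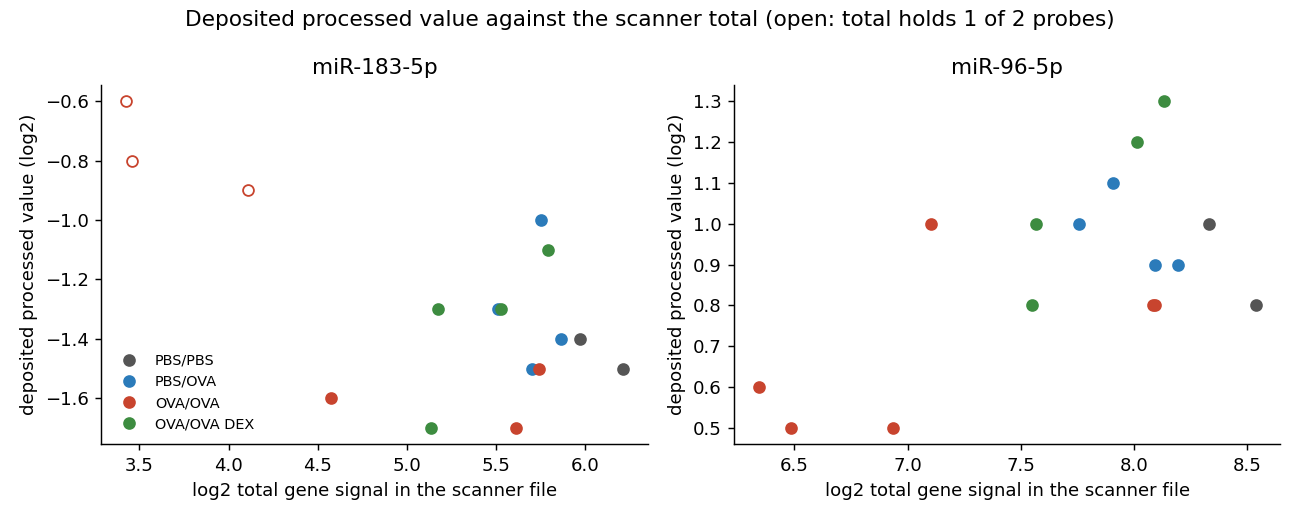
Deposited processed value (vertical, log2) against the log2 total gene signal in the scanner file (horizontal) for miR-183-5p and miR-96-5p on each of the 16 arrays, coloured by group. Open points mark arrays whose total held 1 of the 2 probes. The 3 open points of miR-183-5p, all OVA/OVA, have the lowest totals and the highest deposited values, from -0.9 to -0.6.

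The brightness of the arrays moved with the difference. The summed miRNA signal before scaling was 253333 to 410416 scanner units on OVA/OVA replicates 2, 3, 5 and 6, and 494814 to 942144 on the other 12 arrays, which include OVA/OVA replicates 1 and 4. Before scaling, miR-183-5p read 21.5 to 36.6 units on those 4 arrays and 53.2 to 115 on the others. The scaled signal of miR-183-5p was 5.81 and 5.89 on the 2 brighter OVA/OVA arrays and 5.48 to 5.81 on the 4 dim ones, so both kinds were below all PBS/OVA arrays. For miR-96-5p the 2 brighter OVA/OVA arrays were at 8.30 and 8.23, while dim replicate 5 was at 8.34, the highest of the group. With the logarithm of the summed signal as a covariate, the difference of miR-183-5p was -0.37 against PBS/OVA (limma, adjusted p = 0.0352; 0.00337 to 0.326 over its alternatives) and -0.31 against OVA/OVA DEX (adjusted p = 0.0357; 0.00383 to 0.659 over its alternatives). That of miR-96-5p was -0.22 against PBS/OVA (adjusted p = 0.176; 0.0126 to 0.487 over its alternatives), which did not pass. With the 4 dim arrays left out, 0 members passed in either comparison: miR-183-5p differed by -0.29 and -0.21 and miR-96-5p by -0.16 and -0.21. The part of brightness in these differences was not tested further.

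**Figure D4:**
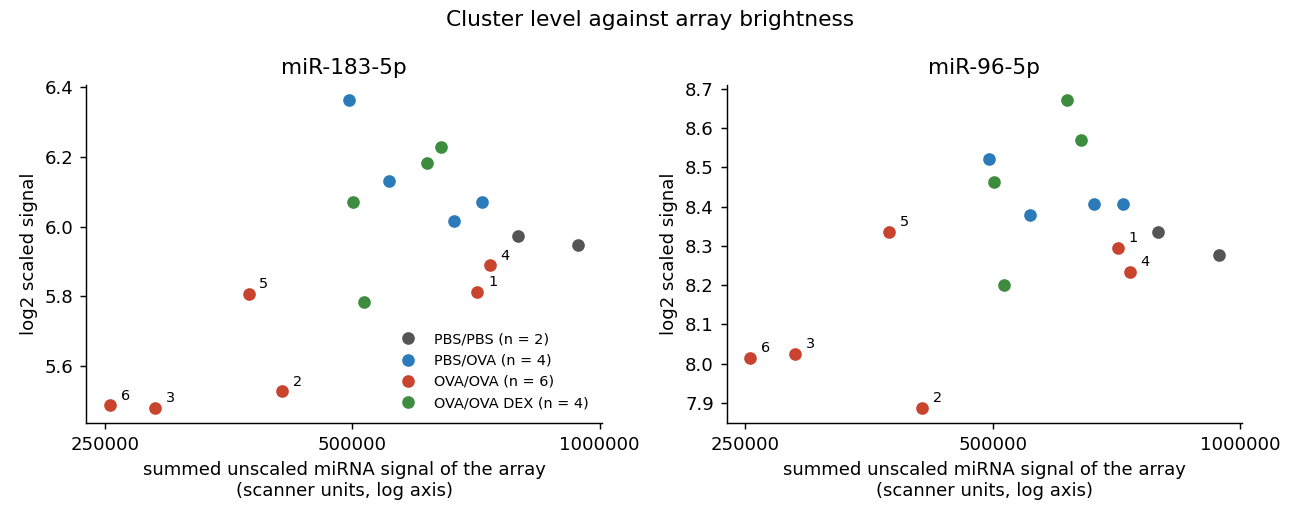
Log2 scaled signal of miR-183-5p and miR-96-5p (vertical axes) against the summed unscaled miRNA signal of each array in scanner units (horizontal, log axis). Points are the 16 arrays, coloured by group, with OVA/OVA replicates numbered. Of the OVA/OVA arrays, 4 lie to the left of all others, and as processed here all 6 lie below the PBS/OVA points for both miRNAs.

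The arrays lay on 2 slides, each with arrays of every group except PBS/PBS, which was on slide 1 alone. Of the 4 dim OVA/OVA arrays, replicate 2 was on slide 1 with brighter replicate 1, and the other 3 were on slide 2 with brighter replicate 4. The direction was the same on each slide. Against PBS/OVA, miR-183-5p differed by -0.54 on slide 1 and -0.41 on slide 2, and miR-96-5p by -0.37 and -0.24. Against OVA/OVA DEX, miR-183-5p differed by -0.31 and -0.48 and miR-96-5p by -0.34 and -0.36. On either slide alone none of these passed, with adjusted p from 0.108 to 0.378 (limma).

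Some of the alternatives that moved these differences moved all miRNAs with them, and others did not. Without scaling between arrays the median difference of all miRNAs tested was -0.56 between OVA/OVA and PBS/OVA, and after normexp it was 0.30, against -0.04 as processed here. Relative to that median, miR-183-5p was at -0.43 as processed here, -0.44 without scaling and -0.11 after normexp, and miR-96-5p at -0.25, -0.26 and -0.38. With control spot scaling miR-183-5p was at -1.07 and the median at -0.63, a distance of -0.44. Scaling multiplies every signal of an array by the same factor. Away from the floor, leaving it out or using control spots could therefore not change the distance, so these equal distances are no separate check. Quantile normalization and the total gene signal moved miR-183-5p itself, to -0.80 and -0.70, with the median at -0.12 and -0.06 and the distance at -0.68 and -0.64. With brightness as a covariate the distance was -0.36.

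**Figure D5:**
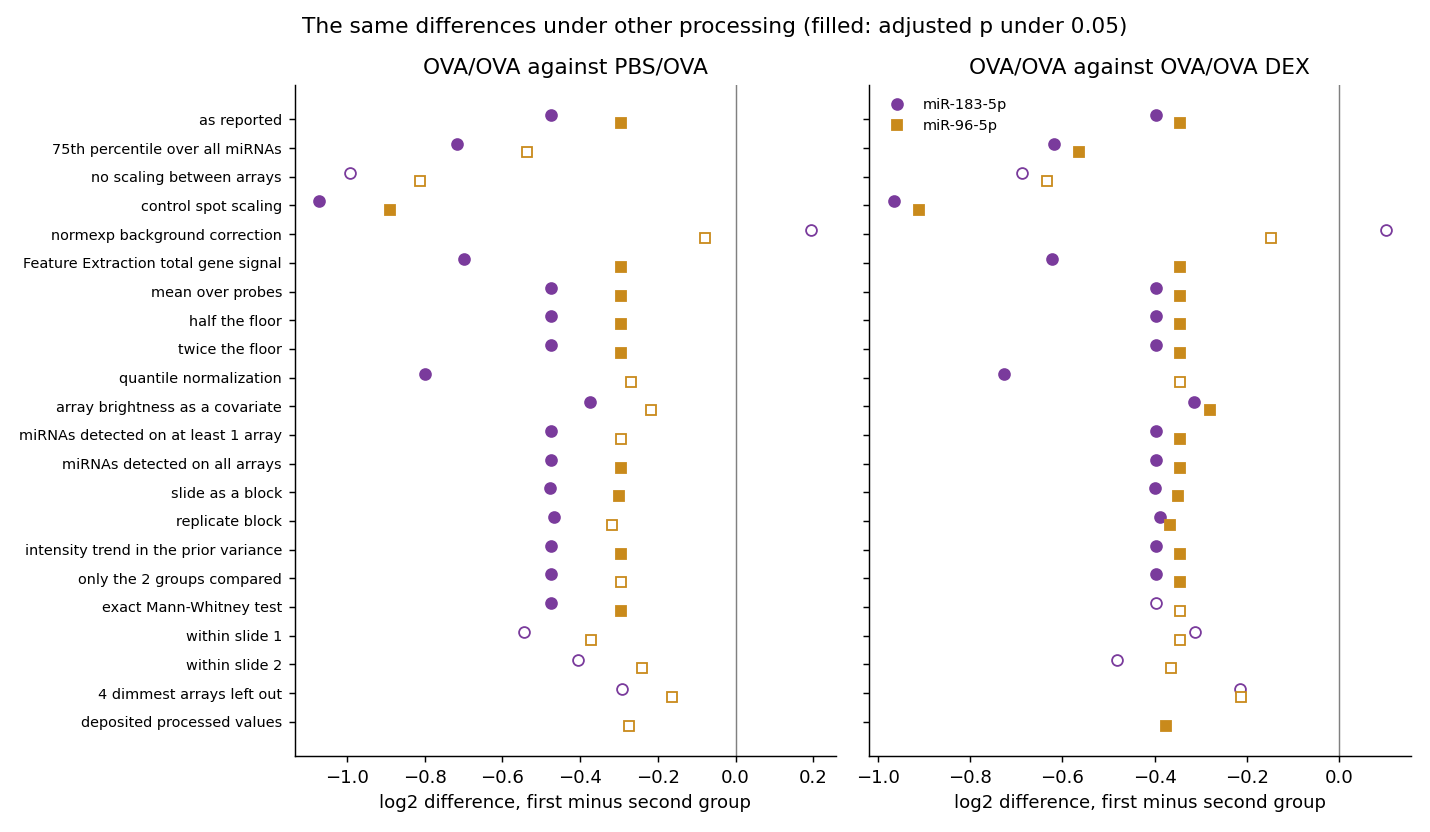
Log2 difference of miR-183-5p (circles) and miR-96-5p (squares) in the 2 comparisons that passed, as reported and under each other processing choice (rows), filled where the adjusted p was under 0.05. miR-183-5p turned to 0.19 and 0.10 after normexp background correction and was below 0 in the other rows that give it. miR-96-5p was below 0 in each row. The deposited processed values give a point for miR-96-5p only.

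As pieces of 1 transcript, the members could have changed together or unequally, so the difference between 2 guide strands was taken within each array and compared between groups by exact two-sided permutation tests, 18 in all. None passed after Benjamini-Hochberg adjustment, but the design allowed little, since a single pair at the smallest p possible would have had an adjusted p of 0.0857 at best. The lowest p was for miR-183-5p minus miR-96-5p between OVA/OVA and PBS/OVA, a difference of -0.18 (exact permutation p = 0.0238; adjusted p = 0.429), where the smallest p possible was 0.00476. After normexp this difference turned to 0.27. In that pair the within-array spread was small, with an SD of 0.09 in OVA/OVA (n = 6) and 0.10 in PBS/OVA (n = 4). Pairs with miR-182-5p had SDs of up to 1.11, wider than the differences of the other members.

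Across the 16 arrays, the levels of miR-183-5p and miR-96-5p were by Pearson's r more alike to each other than to any other miRNA tested. Pearson's r was 0.93 over all arrays and 0.88 after the mean of each group was subtracted, with Spearman's rho of 0.93 and 0.87. By Spearman's rho after group means, miR-96-5p was more like miR-31-3p (0.92). These points share the arrays, their scaling and their brightness. With miR-182-5p, r was 0.59 for miR-183-5p and 0.44 for miR-96-5p, below many miRNAs from elsewhere in the genome. Outside the cluster, the 3 miRNAs closest to miR-183-5p were miR-31-3p (r = 0.89), miR-199a-3p (0.87) and miR-489-3p (0.85), and those closest to miR-96-5p were miR-199a-3p (0.89), miR-152-3p (0.86) and miR-99a-5p (0.84). Of these, miR-31-3p was detected on 11 and miR-489-3p on 12 of the 16 arrays. By Spearman's rho with miR-183-5p, miR-199a-3p (0.82) was closer than miR-31-3p and miR-489-3p (0.77 each). After the group means were subtracted the closest by Pearson's r were miR-674-3p (0.80), miR-214-3p (0.78) and miR-193b-3p (0.77) for miR-183-5p, and miR-103-3p (0.87), miR-31-3p (0.81) and miR-152-3p (0.80) for miR-96-5p.

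The marker miRNAs of cell types showed which other shifts the same lungs carried. The epithelial list, the miR-200 family with miR-205, had a summed log2 level of 13.15 to 13.25 in OVA/OVA, 13.13 to 13.21 in PBS/OVA and 13.06 to 13.35 in OVA/OVA DEX, ranges that overlap. Of its 6 miRNAs, 5 were tested, and the median difference was -0.04 between OVA/OVA and PBS/OVA, beside -0.04 over all miRNAs tested. miR-200c-3p was the 1 that passed there and was higher in OVA/OVA by 0.24 (limma, adjusted p = 0.0324), and 2 of the 5 had an unadjusted p under 0.05, against 45.1% of all miRNAs tested. Against OVA/OVA DEX, miR-200c-3p was higher by 0.25 and miR-200a-3p lower by 0.27. The direction of miR-200c-3p turned without scaling, to -0.28 and -0.04, and with control spot scaling, to -0.36 and -0.32, and against PBS/OVA with the percentile over all miRNAs, to -0.0029, none past the test.

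Most miRNAs of the leukocyte lists were higher in the allergic lungs. All 5 haematopoietic miRNAs were higher in OVA/OVA than in PBS/OVA, where 14.7% of all miRNAs tested were higher, led by miR-223-3p of myeloid cells by 1.12 and miR-142-3p by 1.03, and their summed log2 level was 15.00 to 15.56 against 13.99 to 14.56. Against OVA/OVA DEX, where 21.1% of all were higher, 4 of the 5 were, among them miR-342-3p by 0.90. Of the 9 miRNAs listed for activated lymphocytes, 6 were higher than in PBS/OVA and 5 higher than in OVA/OVA DEX, led by miR-155-5p by 1.87 and 2.60. The study reports the miRNA leading this list in sorted eosinophils, alveolar macrophages and other myeloid cells as well as in T helper cells. The list therefore does not mark lymphocytes alone. The leukocyte lists hold genes the study itself selected on these arrays: miR-155-5p, miR-223-3p, miR-142-3p, miR-18a-5p and miR-21-5p. As processed here miR-182-5p, the member known from activated T helper cells, was not higher in OVA/OVA, where it was detected on 2 of 6 arrays. After normexp it was higher there, by 0.42 than in PBS/OVA, 0.24 than in OVA/OVA DEX and 0.88 than in PBS/PBS. Of these only the last passed. The median difference of all miRNAs tested was then 0.30, 0.16 and 0.54 in the same order. miR-182-5p lay 0.12, 0.08 and 0.33 above it. With its level near the floor, these values cannot decide whether it rose.

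Of the fibroblast, vessel, muscle and red cell lists, the miRNAs that passed in these 2 comparisons were lower in OVA/OVA, the direction of miR-183-5p and miR-96-5p as processed here, where 16.9% of all miRNAs tested were lower than in PBS/OVA and 32.3% lower than in OVA/OVA DEX. Of the 37 calls of miRNAs named by rule from all the lists, 12 were lost after normexp and 31 without scaling between arrays, and 0 to 11 under the other 4 scalings. Both endothelial miRNAs were lower in OVA/OVA than in PBS/OVA, miR-126-5p by a difference of -0.54 and miR-126-3p of -0.24, and both were lower than in OVA/OVA DEX. Of the 4 fibroblast miRNAs tested, 2 were lower than in PBS/OVA, with miR-199b-5p at -0.30 and miR-199a-3p at -0.25, and 3 were lower than in OVA/OVA DEX, where miR-199a-3p turned to 0.07 with quantile normalization. Of the 4 striated muscle miRNAs tested, 3 were lower in both comparisons, with miR-133b-3p at -0.90 and -0.93, although miR-208b-3p turned to 0.20 against PBS/OVA after normexp. miR-206-3p, the marker of skeletal muscle, was detected on 0 of 16 arrays. Of the 2 smooth muscle miRNAs, 0 passed against PBS/OVA in limma, in the exact Mann-Whitney test or at an unadjusted p under 0.05, and both, miR-145-5p and miR-143-3p, were lower in OVA/OVA than in OVA/OVA DEX. Of the red cell list, 2 miRNAs were matched by name, miR-451 and miR-144-3p. miR-486-5p, which the study lists among its altered miRNAs, was not among the names matched and is left out here. Of the 2 matched, 0 passed against PBS/OVA by limma or the exact Mann-Whitney test, and 1 had an unadjusted p under 0.05. Both were lower against OVA/OVA DEX, by differences of -1.04 and -1.06, and the study itself selected both on these arrays. By the exact Mann-Whitney test, 0 of the 2 endothelial, 1 of the 4 fibroblast and 2 of the 4 striated muscle miRNAs passed against PBS/OVA. Against OVA/OVA DEX the counts were 2, 0 and 1, with 1 smooth muscle and 2 red cell miRNAs. The share of all miRNAs tested that pass the exact Mann-Whitney test is not given here, for these or the other lists. The part of these shifts in the level of the cluster was not tested.

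miRNAs of ciliated cells, an epithelium of the airway, moved in both directions. Among them, miR-449a-5p was selected by the study on these same arrays. Against PBS/OVA 0 of the 6 tested passed by limma or the exact Mann-Whitney test, and 1 had an unadjusted p under 0.05. Against OVA/OVA DEX, 4 of the 6 passed the exact Mann-Whitney test. The share of all miRNAs tested that pass that test is not given here. By limma 21.1% of all were higher in OVA/OVA there and 32.3% lower. Against OVA/OVA DEX, miR-449a-5p and miR-449c-5p were higher in OVA/OVA by 2.04 and 3.01 (1.71 and 0.39 after normexp, where miR-449c-5p did not pass, and 1.69 for miR-449c-5p with the total gene signal), while 3 of the miR-34 arms were lower, miR-34c-3p by a difference of -0.97 (0.06 after normexp). Of the list of other sensory organ and neural miRNAs, which is where the cluster is best known, 4 of 6 (miR-124-3p, miR-9-5p, miR-9-3p and miR-184-3p) were detected on no array, 1 was tested and 0 passed by limma, by the exact Mann-Whitney test or at an unadjusted p under 0.05 against PBS/OVA (45.1% of all miRNAs tested at that p) or OVA/OVA DEX (60.2%).

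The nearest other miRNAs on the array lay far from the cluster, and they did not move as 1 block with it. miR-335-5p, 571577 bases away on the plus strand, was lower in OVA/OVA than in PBS/OVA, PBS/PBS and OVA/OVA DEX, by differences of -0.44, -0.54 and -0.39 (limma, adjusted p = 0.0368, 0.0485 and 0.0385), and passed in none after normexp, at -0.02, 0.06 and -0.05. The other arm of the same hairpin, miR-335-3p, gave 0.40, 0.55 and 0.27 and passed in none. miR-29a-3p, miR-29a-5p and miR-29b-3p, 892936 to 893288 bases away on the minus strand, were lower in OVA/OVA than in OVA/OVA DEX, by differences of -0.36, -0.37 (0.09 after normexp) and -0.43, and did not pass against PBS/OVA. miR-29b-1-5p passed in no comparison. miR-29b-3p has a second locus in the genome, so its signal is not from this place alone. miR-129-5p, on the far side of the cluster, was detected on 0 of 16 arrays.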

How the data were processed

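RNA from whole lung was labelled with Cy3 and hybridised to Mouse miRNA Microarray Release 12.0 slides, and the authors read the scans with Agilent Feature Extraction 10.7.3.1. The deposited scanner files hold, per spot, background-subtracted intensity values, median and local background intensity, totals per probe and per miRNA, and flags. The deposited table of processed values is on a log2 scale, and its normalization is not given in the sources used here beyond the study's use of Genespring GX. Control spots and spots flagged as outliers were left out, spots were averaged per probe and probes summed per miRNA. Arrays were scaled by the 75th percentile of the 206 miRNAs found on all 16, signals under the floor (1.71 units) were raised to it, and log2 was taken. A model with 1 mean per group was fitted over all 16 arrays in limma 3.58.1 (R 4.3.3), and two-sided p-values were adjusted by Benjamini-Hochberg over the 266 miRNAs called detected on all arrays of any 1 group. The fit was tested on simulated data. A result passed at an adjusted p under 0.05. Normexp used the median foreground and background intensity with an offset of 50. The difference within an array used exact permutation tests (Python 3.11.15, numpy 2.4.6).

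The members and lists were chosen with earlier results of these data known. The miRNAs named are all members; for miR-183-5p and miR-96-5p, detected on at least 12 arrays, the 3 closest miRNAs by Pearson's r over the arrays and the 3 closest after group means; from each cell type list up to 3 past the test with the largest differences in the 2 comparisons of OVA/OVA with PBS/OVA and OVA/OVA DEX; miRNAs sharing a member's seed; and miRNAs within 2000000 bases. miRNAs of a list that were detected nowhere were named after their values were seen. Sequences and positions are from RefSeq (GRCm38.p6), whose names matched 476 of the 611. The array design names another build. No spot was saturated, no 2 arrays held identical values, and the number of arrays limits the precision.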

Additional observations from a re-analysis of the deposited data

How the results depend on the processing

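Between OVA/OVA and PBS/OVA, where 2 members passed, 1 passed with the 75th percentile over all miRNAs, quantile normalization, array brightness as a covariate, miRNAs detected on at least 1 array, the replicate block, and only the 2 groups compared, and the member that kept its call was miR-183-5p each time. The count was 0 without scaling between arrays, with normexp background correction, with the deposited processed values (which give miR-96-5p only), with a 2-fold threshold, within slide 1 and slide 2 (2 to 4 arrays a group), and with the 4 dimmest arrays left out, where the last 2 choices were made after seeing the data. Leaving out 1 array gave 1 to 2. Against OVA/OVA DEX the count of 2 became 1 with quantile normalization and the deposited values and 0 without scaling, with normexp, with the exact Mann-Whitney test, with a 2-fold threshold, within either slide and with the 4 dimmest arrays left out. Leaving out 1 array gave 1 to 2. Against PBS/PBS the count of 0 became 2 (lower) with the percentile over all miRNAs, 3 (lower) without scaling and 2 (higher) with normexp. The median difference of all miRNAs tested was then -0.56, -1.11 and 0.54, so these counts follow a shift shared by all miRNAs. With normexp miR-183-5p, 1 of the 2, was at 0.54, as was the median. The counts of the remaining comparisons, and that of the pairs of members, stayed at 0 throughout. With control spot scaling the count between OVA/OVA and PBS/OVA rose to 3, as miR-182-5p then passed at -1.33 (limma, adjusted p = 0.0210; 0.0210 to 0.909 over its alternatives). The median difference of all miRNAs tested was then -0.63. miR-182-5p entered the tests through PBS/PBS alone, so its calls as lower are no separate support. Over all miRNAs tested, the number past the test ran from 0 to 150 between OVA/OVA and PBS/OVA. It ran from 10 to 158 between OVA/OVA and OVA/OVA DEX and from 0 to 164 between OVA/OVA and PBS/PBS. The cause of these shifts was not tested.

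Among the 6 differences of a member, direction turned mainly where it had not passed. With normexp, miR-183-5p was at 0.54 (OVA/OVA against PBS/PBS), 0.19 (against PBS/OVA), 0.10 (against OVA/OVA DEX) and 0.0927 (OVA/OVA DEX against PBS/OVA), miR-96-5p at 0.10 (OVA/OVA against PBS/PBS), and miR-182-5p was at 0.46, 0.88, 0.42, 0.24, 0.64 and 0.18 in the 6 comparisons. The difference miR-183-5p minus miR-96-5p then turned to 0.44, 0.27, 0.25, 0.19 and 0.0241. Compared with PBS/PBS, PBS/OVA and the steroid-treated group were at -0.40 and -0.70 for miR-183-5p and -0.46 and -0.64 for miR-96-5p without scaling, in the same order at -0.11, -0.21, -0.17 and -0.14 with the percentile over all miRNAs, and at -0.13 and -0.20 for miR-183-5p with quantile normalization. miR-96-5p between OVA/OVA DEX and PBS/OVA turned to -0.18 without scaling, -0.0273 within slide 1 and -0.0163 without OVA/OVA DEX replicate 1 (leaving out 1 array gave -0.0163 to 0.140), and miR-183-5p there to 0.0755 within slide 2 and 0.0159 without OVA/OVA DEX replicate 4. miR-182-5p between PBS/OVA and PBS/PBS turned to 0.0020 with quantile normalization, 0.57 with brightness, 0.28 with slide as a block, 0.27 with the replicate block, 0.0538 within slide 1, and 0.0592 and 0.0612 without PBS/PBS replicate 2 and PBS/OVA replicate 4 (leaving out 1 array gave -0.147 to 0.0612). With brightness it also turned to 0.20 and 0.33 in OVA/OVA and in the steroid-treated group, each against PBS/PBS. Between OVA/OVA and OVA/OVA DEX it turned to 0.0223 with the replicate block, 0.0804 with the total gene signal, 0.25 within slide 1 and 0.25 with the 4 dimmest arrays left out. Within slide 1 the pair miR-183-5p minus miR-96-5p was at 0.0313 between these 2 groups.

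The numbers did not pair the arrays: deviations from the group means of arrays with the same number correlated from -0.78 to 0.41 over the 266 miRNAs, with 3 of 18 above 0.1, and 0 of 16 arrays correlated best with its own number. With the replicate block, the difference between OVA/OVA and PBS/OVA was -0.47 for miR-183-5p (limma, adjusted p = 0.0321; 0.00337 to 0.326 over its alternatives) and -0.32 for miR-96-5p (adjusted p = 0.0652; 0.0126 to 0.487 over its alternatives). It changed no other call. Signal over background limits miR-182-5p, whose values depend on the floor and on the probe without signal, and miR-183-3p, for which no difference was detectable.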

Other observations

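miR-182-5p parted from the deposited table of processed values in the same way as miR-183-5p. On the 8 arrays where it was detected its Feature Extraction total held 1 of its 2 probes, and the deposited value, after the shift common to each array, was 7.83 to 10.2 times the total. On the 8 arrays where it was not detected the deposited log2 value was -6.8 to -5.7. Of the 611 mouse miRNAs in the deposited table, 434 matched the scanner totals within 0.15 on the log2 scale on every array, and miR-183-5p and miR-182-5p were not among them. A count of probes was not made for miRNAs outside the cluster.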
